A study of Homo sapiens with 16 samples.

Results

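The 6 genes described here are the human IκB genes NFKBIA, NFKBIB, NFKBIE, NFKBIZ, NFKBID and BCL3, chosen by name, and the measurement is binding of p65, a subunit of the transcription factor NFκB, along their DNA. In ChIP-Seq, chromatin fragments recovered with an antibody, here against p65, are sequenced and piled up along the genome as signal, and an input library, from chromatin that skipped the pull-down, gives the background. HT29 and SW480, both colon cancer cell lines, were stably transfected with an empty vector (mock) or with estrogen receptor beta (ERβ, the product of ESR2). All cells had 30 ng/ml TNFα for 30 min, so no comparison with unstimulated cells is possible here, and no estradiol was added. By the methods of the study, cells were cross-linked with disuccinimidyl glutarate and then formaldehyde, to catch long-range as well as short-range p65 contacts. HT29 mock, HT29 ERβ, SW480 mock and SW480 ERβ cells each gave 3 p65 libraries, from separate experiments by the methods of the study, and 1 input library. Whether each transfected line was a pool or a clone is not given in the sources used here.

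The IκB proteins share a run of ankyrin repeats through which they bind NFκB dimers. The classical members IκBα (NFKBIA), IκBβ (NFKBIB) and IκBε (NFKBIE) hold dimers in the cytoplasm until a signal such as TNFα leads to their degradation, and NFκB then switches on new synthesis of its own inhibitors, most rapidly of IκBα. The atypical members BCL3, IκBζ (NFKBIZ) and IκBNS (NFKBID) act mainly in the nucleus, where they bind NFκB dimers on DNA and raise or lower transcription depending on the gene.

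Signal was read in every 200-bp bin from 50 kb upstream to 10 kb downstream of each gene, 2209 bins in all. A bin was listed where the mean of 3 libraries of a group was at least 2 and at least 4 times the input of that group, and touching listed bins were joined into 1 site, read at the bin with the highest mean over the 12 p65 libraries, which need not be the highest in every group. The 6 windows held 57 listed bins, or 2.58% of the bins read, against 12570 of 15441361 bins (0.0814%) in the whole genome. These joined to 17 sites of 7378 in the genome: 1 at NFKBIA, 1 at NFKBIB, 2 at NFKBIE, 2 at NFKBIZ, 3 at NFKBID and 8 at BCL3. Of the 17, 12 were listed in all 4 groups, 2 in 3 groups and 3 in SW480 ERβ alone, while 680 of all 7378 sites were listed in all 4 groups. The NFKBIA site spanned 9 bins with a summit at each end, so both summits are described and 18 summits are plotted.

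Sites are named by gene and by the distance in bp from the start of its reference transcript (the MANE transcript, or the 5′ end of the gene for NFKBID) to the centre of the bin, negative upstream. Within the promoter span of a member, from 1 kb upstream to 100 bp downstream of any of its start sites, lay 10 of the 17 sites. By the listing limits, the weakest listed bin was BCL3 -26407 at 2.005 in SW480 ERβ, and the highest bin left out for its level was NFKBIZ -1013 at 1.985 in HT29 mock. A further SW480 ERβ peak at NFKBID -1398 had a mean of 2.55 but was left out at 3.71 times input, and BCL3 -6607 had 3.03 in HT29 mock at 2.53 times input.

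The input libraries and the labels were checked before the comparisons. Every p65 library followed the inputs of its own line along the genome (correlation 0.972 to 0.991) rather than those of the other line (0.41 to 0.464). Signal over ESR2 coding exons relative to its introns was 4.47 to 8.08 in HT29 ERβ against 1.1 to 1.37 in HT29 mock, and 2.59 to 3.21 in SW480 ERβ against 1.35 to 1.6 in SW480 mock. These ratios check the labels and do not measure the level of ERβ. Libraries differed in overall height at sites. The ratio of a library to the mean of all 12, as a median over 7378 sites, was 1.29 and 1.07 in HT29 mock 1 and HT29 ERβ 1 but 0.572 to 0.725 in the other HT29 libraries. It was 0.58 to 0.747 in SW480 mock, 1.02 in SW480 ERβ 1 and 1.67 to 1.85 in SW480 ERβ 2 and 3. Values with libraries set to the same median height are therefore given beside each comparison of the 17 sites. That median is taken over all listed sites. Of 12570 listed bins, 9578 were listed in SW480 ERβ and 1499 in SW480 mock. The scaling thus rests largely on sites listed for being high in SW480 ERβ, which bears on every lower call of SW480 ERβ on that scale. How far this choice of sites moves the values was not tested.

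The sequences under the summits are shown because they carry the κB element that p65 binds. The 10-base κB consensus was searched as its name on both strands within a listed bin and 50 bp to either side, a window of 300 bp. It was found at 14 of 17 sites, against 63.5% of all 7378 sites, 14% of 35116 RefSeq promoters of 300 bp (GRCh38.p14) and 8.89% of windows 2 kb to either side of the sites. The sites without a match were BCL3 -26407, BCL3 +5793 and NFKBID +22202, the same sites that were listed in SW480 ERβ alone. Their SW480 ERβ means were 2.005, 2.56 and 4.075, and their summits ranged over 595, 287 and 376 bp between libraries. The share with a match among genome sites listed in SW480 ERβ alone was not computed. The windows below, in GRCh38 and written on the strand of the gene, show the match nearest the summit in capitals with 10 bases to either side, for 14 of the 15 summits with a match.
NFKBIA -152, chr14:35404811-35404840, minus strand: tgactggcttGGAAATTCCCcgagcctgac
NFKBIA +848, chr14:35403953-35403982, minus strand: ggaggggggcGGAAAGTCCCtgggcgcctg
NFKBIB -68, chr19:38899932-38899961, plus strand: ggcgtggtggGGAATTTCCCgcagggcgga
NFKBIE +2050, chr6:44263581-44263610, minus strand: ccctggcctaGGGGATTTCCagagcagttc
NFKBIZ -21813, chr3:101827757-101827786, plus strand: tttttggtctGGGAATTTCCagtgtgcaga
NFKBIZ -213, chr3:101849265-101849294, plus strand: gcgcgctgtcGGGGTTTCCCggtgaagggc
NFKBID +2402, chr19:35899819-35899848, minus strand: aggggaggatGGAAGATTCCcttgcgtgag
NFKBID +1602, chr19:35900613-35900642, minus strand: agcgcgacccGGGGACTCCCaggcctgtgg
BCL3 -23407, chr19:44725402-44725431, plus strand: aacccagaacGGGGACTCCCcggaggtcga
BCL3 -9607, chr19:44739081-44739110, plus strand: aggctccgcgGGGACTTTCCatgcttgacc
BCL3 -3207, chr19:44745455-44745484, plus strand: tgtgggagctGGGACTTTCCtgagagcaga
BCL3 -1207, chr19:44747505-44747534, plus strand: gggaaatccgGGAAAGCCCCggaccttcgg
BCL3 -7, chr19:44748700-44748729, plus strand: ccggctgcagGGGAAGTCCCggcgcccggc
BCL3 +4793, chr19:44753438-44753467, plus strand: tgcctgctggGGGAAATCCCttcccgcaga

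The same κB letters recurred between genes. GGGAATTTCC, or its complement read on the other strand, lay at NFKBIA -152, NFKBIB -68 and NFKBIZ -21813, and GGGACTTTCC lay in the same way at NFKBIA +848, BCL3 -9607 and BCL3 -3207. GGGGACTCCC lay at NFKBID +1602 and BCL3 -23407. The summit of a site, taken as the middle of the highest stretch of the track and as the median of 12 libraries, was within 10 bp of a match at 8 of the 15 summits that had any, and within 50 bp at 14. The farthest was NFKBIZ -213, where the match stood 92 bp from the summit. The highest stretches were 8 to 578 bp long with a median of 35 bp, which limits these distances. AP-1 matches (TGANTCA, the same on both strands) lay at 3 of 17 sites, with 2 at NFKBIE -150, 2 at BCL3 -1207 and 1 at NFKBIB -68, against 19.6% of all sites and 7.71% of RefSeq promoters.

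**Figure D1:**
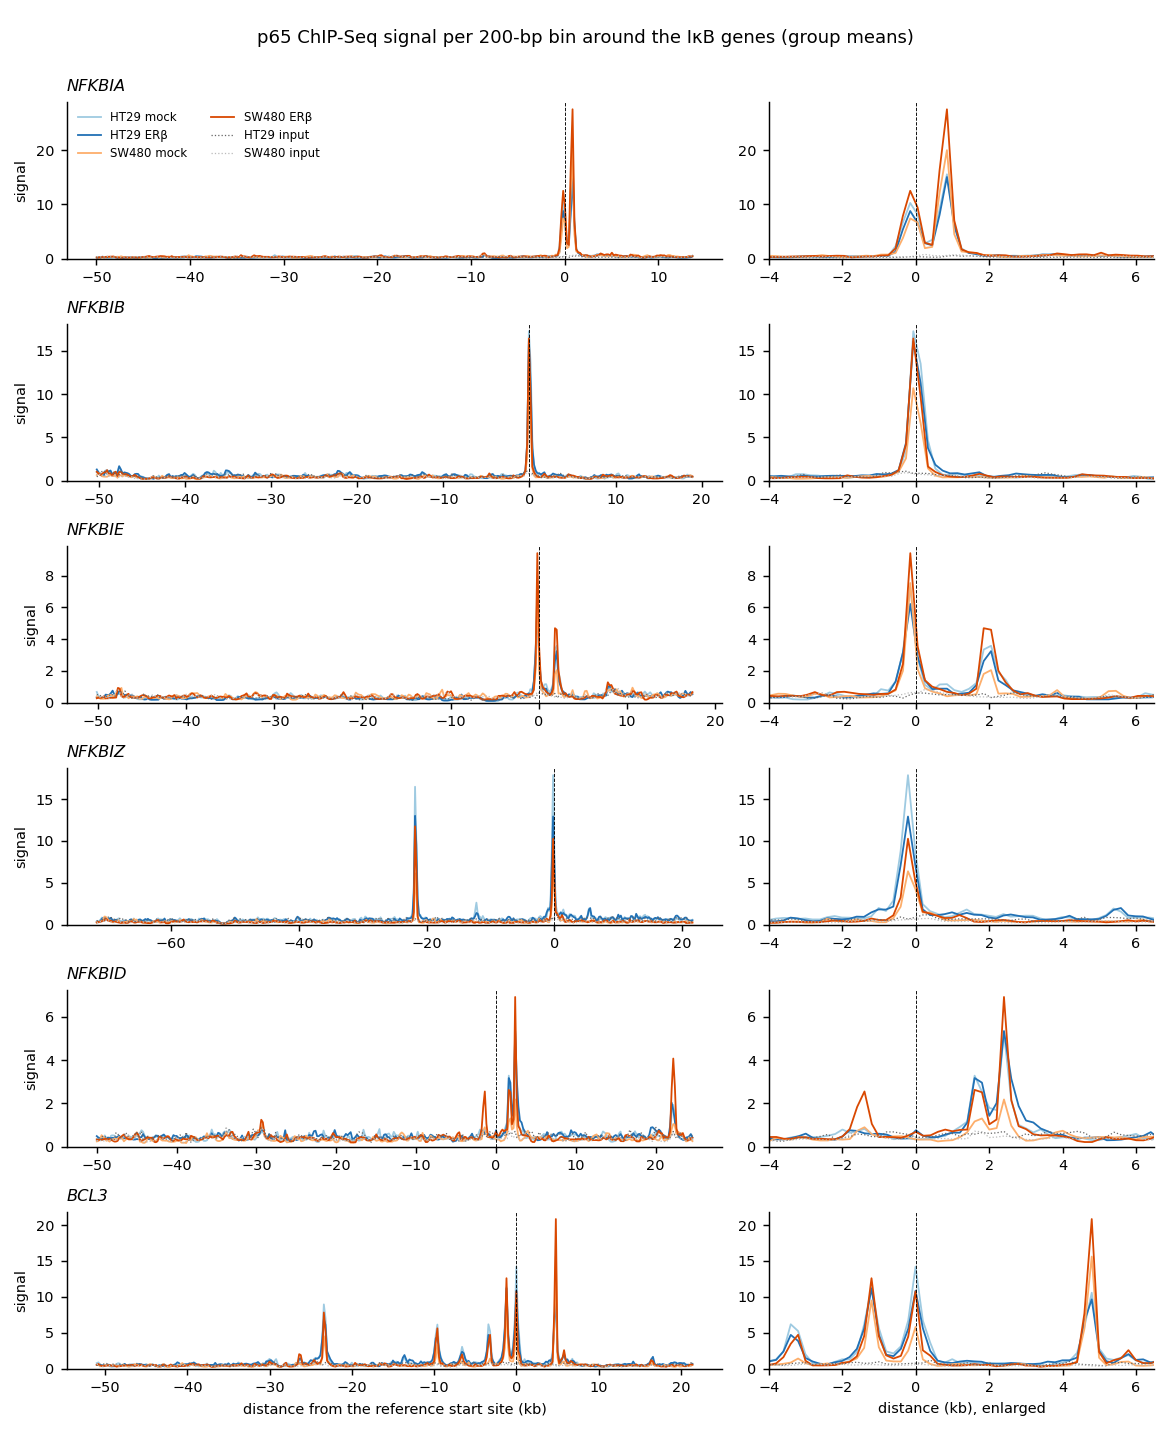
Mean p65 signal of 3 libraries per 200-bp bin (y axis) against the distance in kb from the reference start site (x axis) for the 6 genes, with the whole window on the left and an enlarged part on the right, and the inputs of each line as dotted lines. NFKBIB shows a single peak and BCL3 a row of peaks from 26 kb upstream to 6 kb downstream. Both orange SW480 lines are above the HT29 lines at NFKBIA +848 and at the intronic peak BCL3 +4793.

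NFKBIA, which codes for the inhibitor that is rapidly resynthesised after NFκB activation, carried one of the strongest p65 sites of the genome, and most of it lay inside the gene. The higher summit, NFKBIA +848 (chr14:35403801-35404000), lies in an intron of the reference transcript and 3 bp from the start of a shorter NFKBIA transcript. In HT29 the signal there was 22.8, 10.7 and 13.2 in mock replicates 1, 2 and 3 and 24.3, 10.4 and 10.5 in ERβ replicates. In SW480 it was 24.1, 21.3 and 14.7 in mock and 20.6, 36.3 and 25.6 in ERβ. Replicate 1 was the highest library in both HT29 conditions, and the lines overlapped in both conditions. Among all 7378 sites it ranked 19 in HT29 mock, 9 in HT29 ERβ, 6 in SW480 mock and 5 in SW480 ERβ. The promoter summit, NFKBIA -152 (chr14:35404801-35405000), had lower means of 10.3 ± 3.94 in HT29 mock, 8.79 ± 5.13 in HT29 ERβ, 7.43 ± 1.29 in SW480 mock and 12.5 ± 4.09 in SW480 ERβ (SD, n = 3). The 250 bases upstream of the NFKBIA start site (RefSeq, GRCh38.p14, minus strand, chr14:35404750-35404999) are given with the κB match in capitals, since this summit stood 4 bp from it.
NFKBIA promoter: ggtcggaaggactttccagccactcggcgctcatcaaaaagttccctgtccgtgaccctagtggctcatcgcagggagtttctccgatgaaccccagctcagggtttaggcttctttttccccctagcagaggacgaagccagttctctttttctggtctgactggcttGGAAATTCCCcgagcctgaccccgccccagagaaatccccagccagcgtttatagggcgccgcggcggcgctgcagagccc

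NFKBIB, the gene of the more slowly turned over IκBβ, had a single site at its promoter, NFKBIB -68 (chr19:38899801-38900000), which also falls in the promoter span of SIRT2, a deacetylase gene on the other strand. The signal was 23.1, 14.1 and 14.7 in HT29 mock and 24, 11 and 13.2 in HT29 ERβ. It was 8.87, 12.3 and 11 in SW480 mock and 10.1, 21.3 and 17.9 in SW480 ERβ. All 3 HT29 mock libraries were above the SW480 mock libraries, while the ERβ libraries of the lines overlapped. The site ranked 11 and 7 of 7378 in HT29 mock and ERβ, and 54 and 73 in SW480 mock and ERβ.

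NFKBIE, the gene of IκBε, had a promoter site, NFKBIE -150 (chr6:44265601-44265800), and a weaker intronic site, NFKBIE +2050 (chr6:44263401-44263600). The promoter signal was 7.26 ± 2.75 in HT29 mock, 6.22 ± 2.58 in HT29 ERβ, 7.54 ± 2.31 in SW480 mock and 9.43 ± 3.33 in SW480 ERβ (SD, n = 3), so the 4 groups lay within their spread. At the intronic site the signal was 5.6, 2.33 and 2.82 in HT29 mock and 4.53, 2.72 and 2.5 in HT29 ERβ. It was 2.08, 2.12 and 1.96 in SW480 mock and 4.04, 3.95 and 5.8 in SW480 ERβ. There the SW480 ERβ libraries were all above the SW480 mock libraries.

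NFKBIZ, whose product IκBζ is a nuclear coactivator of inflammatory genes, had a site at each of its main start sites. NFKBIZ -213 (chr3:101849201-101849400) lies at the reference transcript, and NFKBIZ -21813 (chr3:101827601-101827800) lies -290 bp from the start of the longest transcript. At NFKBIZ -213 the signal was 25.4, 14.2 and 14 in HT29 mock and 20.1, 9.81 and 8.82 in HT29 ERβ. It was 6.28, 6.3 and 6.55 in SW480 mock and 5.72, 13.4 and 11.7 in SW480 ERβ. Every HT29 mock library was above every SW480 mock library. NFKBIZ -21813 had nearly the same levels, with 24.9, 11.6 and 12.9 in HT29 mock and 4.24, 6.88 and 7.31 in SW480 mock, and with means of 13 ± 6.88 in HT29 ERβ and 11.8 ± 4.49 in SW480 ERβ (SD, n = 3). Of 7378 sites, NFKBIZ -213 ranked 8 in HT29 mock against 228 in SW480 mock. The upstream promoter is given (RefSeq, GRCh38.p14, plus strand, chr3:101827740-101827989) with its κB match in capitals, 6 bp from the summit.
NFKBIZ upstream promoter: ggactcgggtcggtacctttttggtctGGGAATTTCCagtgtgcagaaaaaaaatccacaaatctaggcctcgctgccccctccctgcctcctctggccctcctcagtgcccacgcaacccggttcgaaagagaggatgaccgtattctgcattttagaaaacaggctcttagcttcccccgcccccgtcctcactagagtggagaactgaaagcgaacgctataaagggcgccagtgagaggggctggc

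NFKBID, whose product IκBNS modulates cytokine genes in the nucleus, had no listed bin at the 5′ end of the gene but sites at the starts of its inner transcripts. NFKBID +2402 (chr19:35899801-35900000) lies -161 bp from one inner start and NFKBID +1602 (chr19:35900601-35900800) lies -39 bp from another. At NFKBID +2402 the signal was 6.92, 4.98 and 3.87 in HT29 mock and 7.62, 3.7 and 4.73 in HT29 ERβ. It was 1.57, 2.7 and 2.27 in SW480 mock and 5.73, 7.8 and 7.25 in SW480 ERβ. SW480 mock was the low group, with no overlap with HT29 mock or SW480 ERβ. NFKBID +1602 had means of 3.28, 3.17, 1.16 and 2.63 in HT29 mock, HT29 ERβ, SW480 mock and SW480 ERβ. NFKBID +22202 (chr19:35880001-35880200), downstream of the gene beside APLP1, had means of 1.93, 1.7, 1.05 and 4.07 in the same order and was listed in SW480 ERβ alone.

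BCL3, whose product binds p50 and p52 dimers in the nucleus, held 8 sites. From upstream, these were BCL3 -26407, -23407, -9607, -3207, -1207, -7, +4793 and +5793, all on chromosome 19. BCL3 -7 (chr19:44748601-44748800) is at the reference start, BCL3 -1207 (chr19:44747401-44747600) at an alternative start, and BCL3 -23407 (chr19:44725201-44725400) in the promoter span of CEACAM16-AS1. The highest was the intronic site BCL3 +4793 (chr19:44753401-44753600) in SW480, where the signal was 15.3, 16.8 and 14.8 in mock and 15.4, 25.2 and 21.9 in ERβ. In HT29 it was 14.6, 8.37 and 8.75 in mock and 14.3, 7.32 and 7.34 in ERβ. Every SW480 library at that site was above every HT29 library of the same condition.

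At BCL3 -7 the order of the lines was the other way round. The signal was 22.2, 9.36 and 11 in HT29 mock and 15.6, 8.27 and 8.69 in HT29 ERβ. It was 5.35, 5.59 and 6.48 in SW480 mock and 6.03, 13.5 and 12.7 in SW480 ERβ. The HT29 mock libraries were all above the SW480 mock libraries. BCL3 -1207 lay between these patterns, with 11.3 ± 4.49 in HT29 mock, 11.2 ± 6.27 in HT29 ERβ, 9.49 ± 2.12 in SW480 mock and 12.6 ± 2.96 in SW480 ERβ (SD, n = 3), and the groups overlapped. BCL3 -23407 and BCL3 -9607 had group means of 3.33 to 8.95, and BCL3 -26407 and BCL3 +5793, the latter -648 bp from the start of a short BCL3 transcript, of 0.665 to 2.56. At BCL3 -26407 the SW480 libraries had 0.673, 0.23 and 1.09 in mock and 1.91, 1.11 and 3 in ERβ, and the HT29 libraries 0.87 to 1.7. At BCL3 +5793 the SW480 libraries had 0.785, 0.787 and 1.35 in mock and 2.08, 3.18 and 2.42 in ERβ, and the HT29 libraries 1.31 to 3.25.

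The upstream site BCL3 -3207 (chr19:44745401-44745600) was called in 3 of the 5 comparisons below, as was NFKBID +22202, which was listed in SW480 ERβ alone. The signal was 7.3, 3.72 and 4.66 in HT29 mock and 4.3, 4.26 and 3 in HT29 ERβ. It was 0.731, 1.78 and 1.68 in SW480 mock and 2.85, 5.58 and 5.68 in SW480 ERβ. SW480 mock stood alone below the other groups, and it was the group in which the site was not listed. The next bin of the same site, BCL3 -3407, was higher in HT29, with means of 6.17 in HT29 mock, 4.69 in HT29 ERβ, 0.829 in SW480 mock and 3.45 in SW480 ERβ. Tested with all listed bins (limma), BCL3 -3407 was lower in SW480 mock than in HT29 mock by -1.93 (SE 0.335, adjusted p = 2.66e-07) and higher with ERβ in SW480 by 1.26 (SE 0.282, adjusted p = 0.000252), with a difference in ERβ effect of 1.55 (SE 0.507, adjusted p = 0.0246). The highest stretch of the track lay between positions 44745251 and 44745424 in the 6 HT29 libraries and between 44745422 and 44745540 in the 3 SW480 ERβ libraries, a description chosen after the values were seen. The 200 bases of this bin are given on the plus strand with the κB match in capitals.
BCL3 -3207: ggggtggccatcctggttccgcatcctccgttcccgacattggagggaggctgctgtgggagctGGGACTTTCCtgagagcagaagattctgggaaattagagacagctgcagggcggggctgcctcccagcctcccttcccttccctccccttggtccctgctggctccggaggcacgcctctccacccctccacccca

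**Figure D2:**
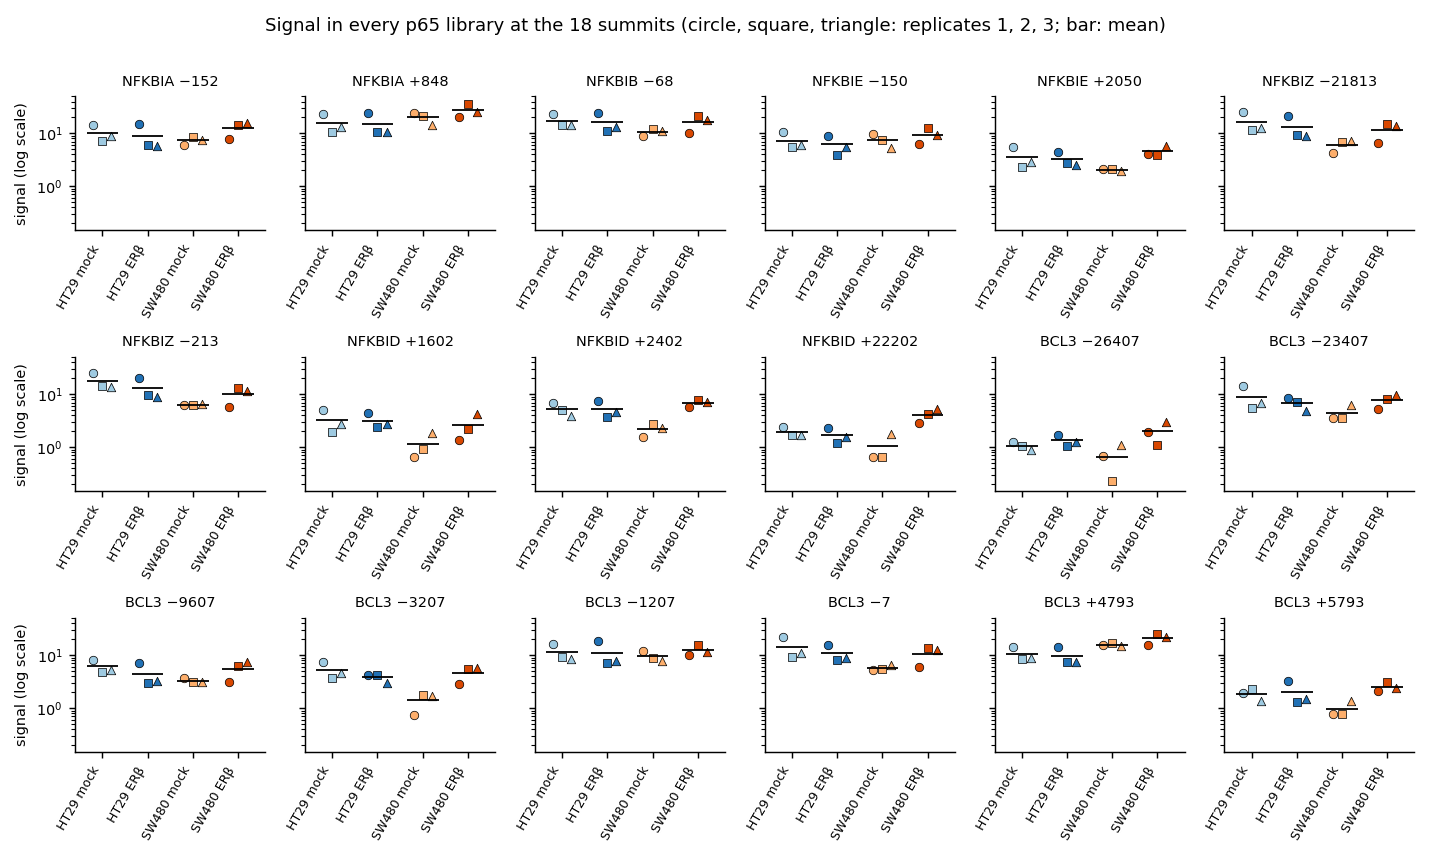
p65 signal (y axis, log scale) in each of the 12 ChIP libraries at the 18 summits, by group along the x axis, with 1 marker shape per replicate number and a bar at the mean of 3 libraries. By mean, SW480 mock is the lowest group at every summit but NFKBIA +848, NFKBIE -150 and BCL3 +4793, and SW480 is the higher line at BCL3 +4793.

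The order of the sites by mean signal was not the same in all 4 groups. In HT29 mock the highest means were those of NFKBIZ -213 (17.9), NFKBIB -68 (17.3), NFKBIZ -21813 (16.5), NFKBIA +848 (15.6) and BCL3 -7 (14.2). All sites of a group were read in the same libraries. The SDs, here 5.01 to 7.33, include the height of the library and do not measure the order of sites. NFKBIA +848 was above BCL3 -7 in every HT29 mock library, and the other neighbours changed order between libraries. In HT29 ERβ the leading sites were NFKBIB -68 (16.1), NFKBIA +848 (15.1), NFKBIZ -21813 (13) and NFKBIZ -213 (12.9), with SDs of 6.27 to 7.98. NFKBIA +848 was above NFKBIZ -21813 in every HT29 ERβ library, and the other neighbours changed order. In SW480 mock the order was NFKBIA +848 (20 ± 4.82), BCL3 +4793 (15.6 ± 1.04), NFKBIB -68 (10.7 ± 1.72) and BCL3 -1207 (9.49 ± 2.12) (SD, n = 3). There the libraries of BCL3 +4793 were all above those of NFKBIB -68, and the other neighbours overlapped and changed order between libraries. In SW480 ERβ the leading 3 were the same, at 27.5 ± 8.04, 20.8 ± 4.97 and 16.4 ± 5.79. Their ranges overlapped, but every SW480 ERβ library gave this same order.

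Between the lines in mock cells, 6 of the 17 sites were lower in SW480 and none was higher, against 3078 of all 7378 sites called (41.7%), 1082 of them higher and 1996 lower. The test was limma on log2(signal + 1) over all sites, called at an adjusted p (Benjamini-Hochberg) under 0.05. The 6 were both NFKBIZ sites, BCL3 -3207, BCL3 -7, NFKBID +2402 and NFKBID +1602, all at atypical IκB genes, which hold 13 of the 17 sites, and none of the 4 sites of NFKBIA, NFKBIB and NFKBIE was called. BCL3 -3207 was lower by a log2 difference of -1.37 (SE 0.342, adjusted p = 0.000385). NFKBIZ -213 was lower by -1.30 (SE 0.349, adjusted p = 0.000945) and NFKBIZ -21813 by -1.24 (SE 0.351, adjusted p = 0.00181). BCL3 -7 was lower by -1.07 (SE 0.354, adjusted p = 0.00836), and the NFKBID sites by -0.96 each (adjusted p = 0.0174 at NFKBID +2402 and 0.00991 at NFKBID +1602). The median log2 difference was -0.62 over the 17 sites and -0.17 over all sites. Of the 12 sites listed in all 4 groups, 4 were called, against 121 of 680 such sites in the genome (17.8%). Their medians were -0.66 and -0.19. The libraries of the lines did not overlap at 11 of the 17 sites, 10 of them higher in HT29, against 51.1% of all sites. With libraries set to the same median height over all sites, 7 of the 17 were called lower in SW480 and 2 higher, NFKBIA +848 (0.74) and BCL3 +4793 (0.92), while higher calls went from 35.2% to 50.3% of all calls in the genome. With input subtracted they were 21.5%.

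The input differed between the lines over these genes, in the direction of the line difference at some sites and against it at others. Relative to the median of the genome, input over 100 kb was 1.64 in HT29 and 0.991 in SW480 at NFKBIZ -21813, 1.61 and 1.23 at BCL3 -7, and 0.798 and 1.1 at NFKBIA +848. At BCL3 +4793 it was 1.6 in HT29 and 1.23 in SW480 although the signal was higher in SW480, and at NFKBIE +2050 it was 1.1 and 1.25 although the mean signal was lower in SW480 mock. When each site was divided by this local input, BCL3 -3207 (log2 difference -0.99, adjusted p = 0.00891) and NFKBID +1602 (-0.78, adjusted p = 0.0344) were still called. The NFKBIZ sites were then at -0.58 and -0.62, BCL3 -7 at -0.70 and NFKBID +2402 at -0.78 (adjusted p = 0.0624), none of them called, and BCL3 +4793 became a call, higher in SW480 by 0.89 (SE 0.371, adjusted p = 0.0463). NFKBIA +848 went from 0.38 as deposited to -0.05 (limma, adjusted p = 0.925). Without SW480 mock replicate 1 the calls fell to 2 sites, NFKBIZ -213 and BCL3 -3207, and without SW480 mock replicate 2 to 3 sites. BCL3 -3207 was lower in SW480 mock and called under all 23 alternatives run for it, from -1.75 to -0.99.

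In ERβ cells the lines differed at 3 of the 17 sites, all higher in SW480, against 4396 of 7378 sites (59.6%) in the genome. These were BCL3 +4793 at a log2 difference of 1.07 (SE 0.438, adjusted p = 0.0266), NFKBID +22202 at 0.91 (SE 0.373, adjusted p = 0.0282) and NFKBIA +848 at 0.90 (SE 0.414, adjusted p = 0.0498). NFKBID +22202 was listed through SW480 ERβ alone, so it had to be high there. The median over the 17 sites was 0.29, below the 0.76 of all sites. Of the 12 sites listed in all 4 groups, 2 were called, against 211 of 680 such sites in the genome (31%). Their medians were 0.27 and 0.70. After division by local input NFKBIA +848 was at 0.47 (adjusted p = 0.39) and no longer called. All 3 calls were lost without any of HT29 ERβ replicate 2, HT29 ERβ replicate 3, SW480 ERβ replicate 2 or SW480 ERβ replicate 3 (0 sites called each). Libraries of the lines did not overlap at BCL3 +4793 and NFKBID +22202, 2 of 17 sites, against 57.9% of all sites. When libraries were scaled to the same median height over all sites, 15 of the 17 sites were lower in SW480 ERβ and 10 were called lower, with none called higher, and higher calls in the genome went from 83.1% to 49.4% of all calls. Here too the median was taken over a list with most bins listed in SW480 ERβ.

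**Figure D3:**
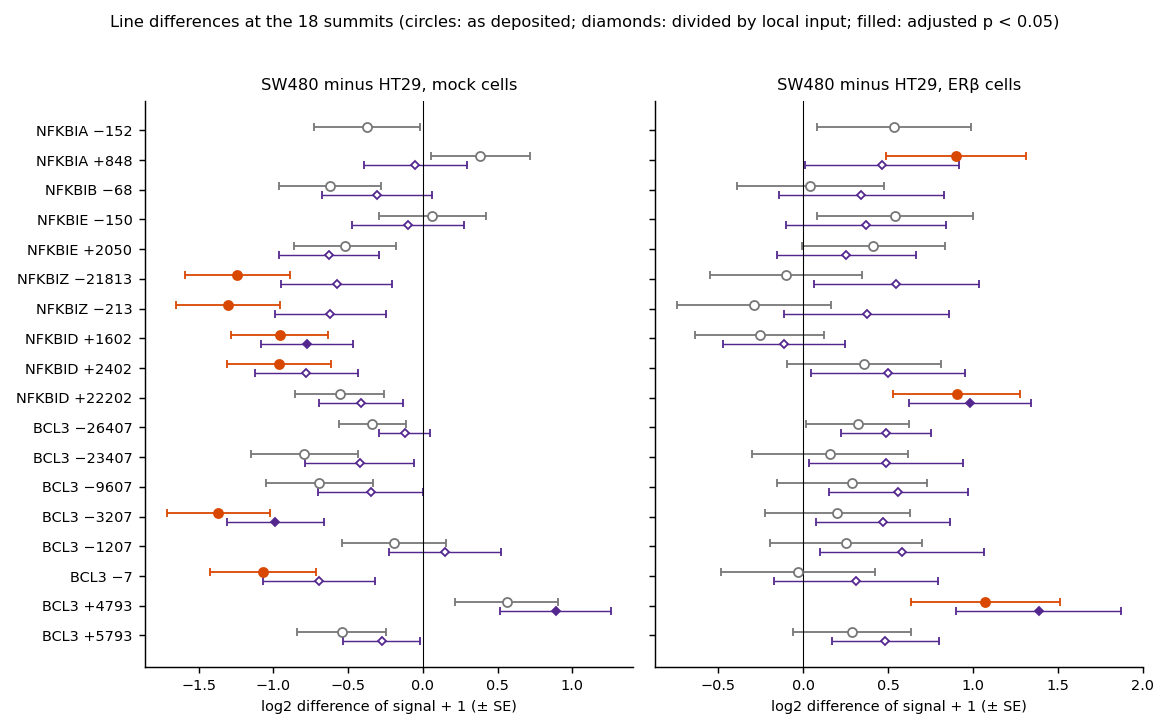
Log2 difference of signal + 1 between SW480 and HT29 (x axis, ± SE) at each summit in mock cells (left) and ERβ cells (right), as deposited (circles) and after division by the local input of each line (diamonds, not computed for NFKBIA -152), with filled markers at an adjusted p under 0.05. BCL3 -3207 stays filled under both scalings in mock cells, while the NFKBIZ sites, at -1.24 and -1.30 as deposited, do not.

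Sites of the same gene were also compared between the lines by ratios inside a library, where overall height cancels. The ratio of BCL3 +4793 to BCL3 -7 was 0.657 to 0.914 in the 6 HT29 libraries and 1.72 to 3 in the 6 SW480 libraries, with no overlap, and it was the only such ratio without overlap among the 12 formed within genes. BCL3 -1207 to BCL3 -7 had 0.743 to 1.18 in HT29 and 0.925 to 2.21 in SW480. NFKBIA +848 to NFKBIA -152 had 1.46 to 1.83 in HT29 and 1.65 to 3.94 in SW480. NFKBIZ -21813 to NFKBIZ -213 had 0.817 to 1.04 in HT29 and 0.675 to 1.16 in SW480, so the NFKBIZ promoters kept a ratio near 1 in both lines. These ratios were chosen after the values were seen and are given without a test. The share of such ratios without overlap among site pairs of the genome was not computed.

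In HT29, ERβ was compared with mock at the same 17 sites, and no site was called (limma, 0 of 17), as for all sites (0 of 7378, 0%). A fit with the replicate number as a block also called 0 of 17, and 19 of all sites. At an unadjusted p under 0.05 there were 0 of the 17 sites and 137 of 7378. The log2 differences ran from -0.48 at NFKBIZ -213 (SE 0.481) to 0.18 at BCL3 -26407 (SE 0.308), with a median of -0.14 over the 17 sites and -0.15 over all sites. By replicate number, ERβ was above mock at 6, 5 and 3 of 17 sites in replicates 1, 2 and 3, against 28.6%, 36.7% and 28.8% of all sites. Both NFKBIZ sites, NFKBIE -150, BCL3 -9607, BCL3 -7, BCL3 +4793 and NFKBID +22202 were lower with ERβ in all 3 pairs, and BCL3 -26407 was higher in all 3. At NFKBIZ -213 the ratio of ERβ to mock was 0.793, 0.688 and 0.631. The libraries of mock and ERβ overlapped at all 17 sites (0 without overlap, against 4.85% of all sites). With libraries set to the same median height, which by construction puts the median of all sites near 0 (0.01), 11 of 17 differences were above 0 and none was called.

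In SW480, ERβ cells had more signal than mock cells at all 17 sites as deposited, and 8 were called higher (limma), against 3832 of 7378 sites (51.9%), all but 1 of these higher. With the replicate number as a block 11 of 17 were called, against 4896 of all sites. The largest differences were at NFKBID +22202, with a log2 difference of 1.33 (SE 0.305, adjusted p = 0.000256), NFKBID +2402, with 1.32 (SE 0.318, adjusted p = 0.000451), and BCL3 -3207, with 1.24 (SE 0.31, adjusted p = 0.000747). The other calls were NFKBIE +2050 (0.86), BCL3 +5793 (0.85), BCL3 -26407 (0.84), NFKBIZ -21813 (0.79) and NFKBID +1602 (0.70), with adjusted p of 0.0059 to 0.04. Of the 8, NFKBID +22202, BCL3 -26407 and BCL3 +5793 were listed through SW480 ERβ alone and had to be high there. At BCL3 +5793 the HT29 ERβ mean of 2.009 also passed the level, but its input was 0.792, against 0.23 in SW480 ERβ. Among the 12 sites listed in all 4 groups 3 were called, against 263 of 680 such sites in the genome (38.7%). The median log2 difference was 0.70 over the 17 sites and 0.68 over all sites.

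The 5 sites with the highest signal in SW480 mock had the 5 lowest ratios of the ERβ mean to the mock mean in SW480, a description that shares the mock values on both sides. The ratio was 1.25 at NFKBIE -150, 1.38 at NFKBIA +848, 1.33 at BCL3 +4793, 1.54 at NFKBIB -68 and 1.33 at BCL3 -1207, and none of these passed the test (log2 differences of 0.27 to 0.53, adjusted p = 0.171 to 0.461). It was 3.17 at NFKBID +2402, 3.37 at BCL3 -3207 and 3.9 at NFKBID +22202. BCL3 -9607, which has the same κB letters as BCL3 -3207, had a ratio of 1.68, and the difference between these sites was not tested. By replicate number, ERβ was above mock at 12, 17 and 17 of 17 sites, against 81.9%, 96.3% and 94.4% of all sites. The ratio of ERβ to mock had a median over the 17 sites of 1.53, 2.18 and 1.87 in replicates 1, 2 and 3, and over all sites of 1.62, 2.48 and 2.11. In replicate 1 the ratio was under 1 at NFKBIA +848 (0.857), NFKBIE -150 (0.63), NFKBIZ -213 (0.91), BCL3 -9607 (0.854) and BCL3 -1207 (0.858). Mock and ERβ libraries did not overlap at 6 of 17 sites, against 53.8% of all sites. Among the 6 were NFKBID +22202, BCL3 -26407 and BCL3 +5793, which were listed through SW480 ERβ alone and had to be high there.

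The SW480 differences depended on how the libraries were scaled. The median log2 difference of all sites fell from 0.68 to -0.08 when libraries were scaled to the same median height. On that scale 7 of the 17 sites were above 0 and 10 below, no site was called higher, and NFKBIE -150 (-0.75), BCL3 +4793 (-0.71), BCL3 -1207 (-0.68) and NFKBIA +848 (-0.66) were called lower, and higher calls in the genome went from 3831 of 3832 to 302 of 548. These lower calls rest on a median over all listed sites, most of whose bins were listed in SW480 ERβ. On the same scale NFKBID +22202, BCL3 -3207 and NFKBID +2402 were at 0.60, 0.44 and 0.43 and not called (adjusted p = 0.122 to 0.229). As deposited, the count of calls was 16 without SW480 ERβ replicate 1. It was 4 without SW480 mock replicate 1, 3 without SW480 mock replicate 2, 5 without SW480 ERβ replicate 2 and 4 without SW480 ERβ replicate 3. In a bulk assay, more cells with p65 at a site and more p65 at the site per cell cannot be told apart.

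**Figure D4:**
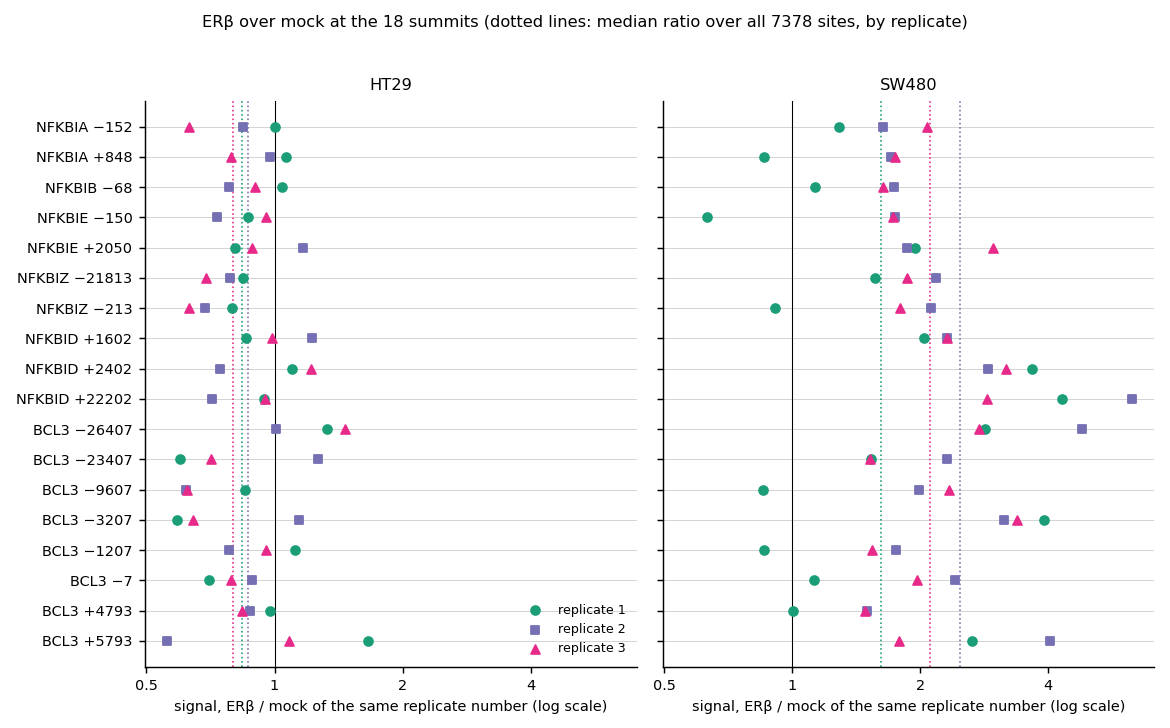
Ratio of ERβ to mock signal of the same replicate number (x axis, log scale) at each summit in HT29 (left) and SW480 (right), with 1 colour and shape per replicate and dotted lines at the median ratio of all 7378 sites. In HT29 most points lie near or under 1, and in SW480 NFKBID +2402 and BCL3 -3207 lie to the right of the dotted lines in all 3 replicates while NFKBIA +848 and BCL3 +4793 lie to their left.

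The ERβ effect itself was compared between the lines. By the study, transduced ERβ was expressed more in SW480 than in HT29, so receptor level and line cannot be told apart here. The effect was larger in SW480 than in HT29 at all 17 sites as deposited, and 2 were called (limma interaction), against 1918 of 7378 sites (26%), all higher. These were BCL3 -3207, with a difference of 1.57 on the log2 scale (SE 0.514, adjusted p = 0.0211), and NFKBID +22202, with 1.46 (SE 0.454, adjusted p = 0.0158), which was listed through SW480 ERβ alone and had to be high there. Among the 12 sites listed in all 4 groups none was called, against 46 of 680 such sites in the genome (6.77%). NFKBID +2402 had 1.32 (SE 0.528, adjusted p = 0.0532). With replicate number as a block 13 of 17 sites were called, against 5125 of all sites (69.5%), and those not called were NFKBIA +848, NFKBIE -150, BCL3 -1207 and BCL3 +4793. The count was 9 without HT29 ERβ replicate 1 and 7 without SW480 ERβ replicate 1. It was 1 without HT29 mock replicate 1, HT29 ERβ replicate 2, HT29 ERβ replicate 3, SW480 mock replicate 2 or SW480 ERβ replicate 2, and 0 without SW480 mock replicate 1 or SW480 ERβ replicate 3. With libraries at the same median height, 14 of the 17 differences were below 0, and BCL3 +4793 alone was called, at -0.82 (adjusted p = 0.0445), while 63 of 94 calls in the genome were higher.

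The genes whose promoter site was most like those of the members were found by correlation over the 12 p65 libraries, on log2(signal + 1) after the median of each library over all sites was taken off. Of 260 other promoter sites listed in all 4 groups, the closest to NFKBIA +848 was BIRC3, an inhibitor of apoptosis (Pearson r = 0.962), followed by an unnamed gene of the annotation (0.957). BCL3 -7 and NFKBIZ -213 were near each other (0.956), BCL3 -7 was closest to another unnamed gene (0.958), and the next for NFKBIZ -213 was NDUFV2 (0.951). NFKBIB -68 was nearest to MYADM (0.94) and CA11 (0.926), NFKBIE -150 to IL6ST (0.894) and EIF2S3 (0.87), NFKBID +2402 to CHMP2A (0.928) and BBC3 (0.844), and BCL3 -1207 to EIF2S3 (0.846) and RELB (0.832). The 12 libraries fall in 4 groups, so their points are not independent, and these values describe the pattern and carry no test.

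Other genes of the NFκB pathway were read at their promoters for comparison, on the deposited scale alone. Of 29 genes of subunits, kinases, adaptors and feedback enzymes, 14 had a listed promoter site and 9 of these were listed in all 4 groups. In mock cells 2 of the 14 were called higher and 2 lower in SW480, against 41.7% of all sites called. CYLD, a deubiquitinase that damps NFκB signalling, was higher by 0.87 (SE 0.354, adjusted p = 0.0347), and NFKB1, which codes for p105 and p50, was lower by -0.92 (SE 0.356, adjusted p = 0.0263). With ERβ in SW480, 5 of 14 were called higher and none lower, RELA, NFKB1, IKBKB, IKBKG and TRAF2, against 51.9% of all sites, while in HT29 none of the 14 was called. IKBKB, IKBKG, TRAF2 and BIRC2 were listed through SW480 ERβ alone and had to be high there. TNFAIP3, the gene of the feedback enzyme A20, had 14 ± 5.37 in HT29 mock, 12.8 ± 6.03 in HT29 ERβ, 22.9 ± 3 in SW480 mock and 23.6 ± 7.3 in SW480 ERβ (SD, n = 3), and was not called in any comparison. The NFKB2 promoter was at the level of the strongest IκB sites, with 22.3 ± 7.82 in HT29 mock and 23.3 ± 10.5 in SW480 ERβ (SD, n = 3). In ERβ cells 5 of the 14 were called higher in SW480 than in HT29 (IKBKB, CYLD, TRAF2, BIRC2 and TRAF3), against 59.6% of all sites, and 3 of these 5 were among the genes listed through SW480 ERβ alone. The difference in ERβ effect was called at 1 gene, IKBKG, also listed through SW480 ERβ alone, against 26% of all sites.

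**Figure D5:**
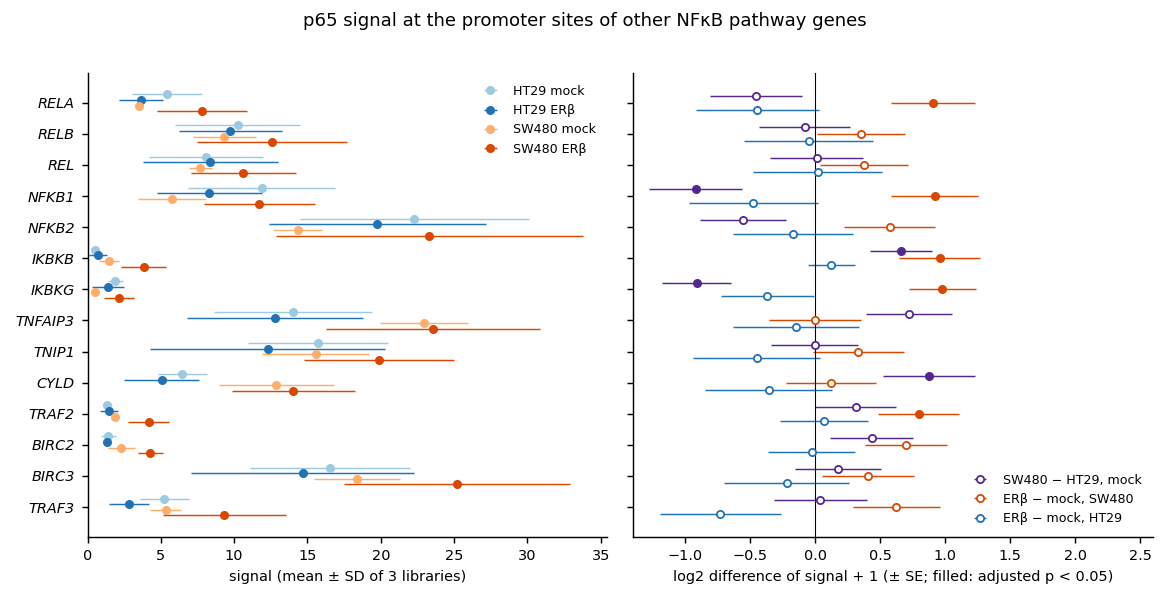
Signal (left x axis, mean ± SD of 3 libraries) and log2 difference of signal + 1 (right x axis, ± SE, filled at an adjusted p under 0.05) at the promoter sites of the 14 other NFκB pathway genes with a listed site. RELA, NFKB1, IKBKB, IKBKG and TRAF2 are filled for ERβ against mock in SW480, and no gene is filled for HT29.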

How the data were processed

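Per the labels and the methods, the reads were mapped by STAR (build GRCh38) and HOMER made the tracks, and the 16 deposited tracks hold signal (tag density) scaled by the authors to 10 M tags and 100-bp fragments, with stretches under 0.05 left out. Versions are not stated in the sources used here, and the scaled signal keeps no depth, so no interval or floor from counts is given and a count test could not be run. The study described 3 biological replicates per group.

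Signal was averaged in 200-bp bins (Python 3.11.15, numpy 2.4.6, pandas 2.3.3). Sites listed in any group were tested on log2(signal + 1) with limma 3.58.1 (R 4.3.3, eBayes with trend, two-sided), with Benjamini-Hochberg adjustment over 7378 sites, each comparison on its own libraries and the interaction on all 12. The fit was tested on simulated data for SW480 mock against HT29 mock and for ERβ against mock in SW480. Noise was drawn for each site separately, so differences in library height and the interaction were not covered. Annotation was GENCODE release 44, and sequences were read with pysam 0.24.0 from GRCh38 or taken from RefSeq. The members, pathway list and rules were chosen with earlier results of these data known. Promoter sites, the highest site of each gene and called sites were described, and the 2 most similar promoters were named. The match at NFKBIE -150 and the promoters most like NFKBIZ -21813 are not reported here.

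Replicate numbers correlated between mock and ERβ libraries in both lines (0.591, 0.236 and 0.282 in HT29, 0.321, 0.144 and 0.229 in SW480 for replicates 1, 2 and 3), all over the limit of 0.1 used to treat them as pairing mock with ERβ. The labels do not state this, and in HT29 mock 2 correlated with ERβ 3 (0.286) as much as with ERβ 2. Between lines, same-numbered libraries had correlations of -0.0811 to 0.0215 and are not paired. The main tests had no term for the replicate number. Fits with the replicate number as a block are given beside them for the ERβ comparisons. Alternatives covered scaling, input, listing limits, bin width and grid, pseudocount, the fit, the block and each library left out.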

Additional observations from a re-analysis of the deposited data

Results flagged for a closer look

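The effect of ERβ differed between SW480 and HT29 by the interaction test at 2 of the 17 sites, against 26% of all sites. With the replicate number as a block 13 of the 17 sites were called, against 69.5% of all sites. At BCL3 -3207 the difference in effect was 1.57 on the log2 scale (limma, adjusted p = 0.0211), with ERβ over mock ratios of 3.9, 3.14 and 3.37 in SW480 and 0.588, 1.14 and 0.643 in HT29 for replicates 1, 2 and 3. At NFKBID +22202 it was 1.46 (limma, adjusted p = 0.0158), with ratios of 4.32, 6.29 and 2.86 in SW480 and 0.943, 0.712 and 0.952 in HT29. With libraries scaled to the same median height these differences were 0.54 and 0.56 and were not called (adjusted p = 0.392 and 0.408). NFKBID +22202 was listed through SW480 ERβ alone.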

How the results depend on the processing

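The number of listed sites was 13 to 22 under other listing rules. Over single sites and alternatives, 1743 values kept their direction and side of the threshold, 88 lost the call, 68 gained one, 13 reversed and 102 changed sign with no call on either side. All 13 reversals came from scaling libraries to the same median height. This divides the signal before 1 is added, so strong sites moved further on the log2 scale than weak ones. For ERβ against mock in SW480, NFKBIA +848 went from 0.43 to -0.66 and BCL3 -26407 from 0.84 to 0.28. By construction, a difference smaller than the shift at its own site changes sign. The median of all sites went from 0.76 to 0.04 between the ERβ lines, from 0.68 to -0.08 for ERβ in SW480 and from 0.84 to -0.07 for the difference in effect. For SW480 against HT29 with ERβ the reversals were NFKBIA +848 (-0.10), NFKBID +2402 (-0.53), NFKBIB -68 (-0.95), BCL3 -23407 (-0.76), BCL3 -9607 (-0.57), BCL3 -3207 (-0.66) and BCL3 -1207 (-0.71). For ERβ against mock in SW480 they were NFKBIZ -21813 (-0.23), NFKBIE -150 (-0.75), NFKBIA +848 (-0.66), BCL3 -1207 (-0.68) and BCL3 +4793 (-0.71), and for the difference in ERβ effect BCL3 +4793 (-0.82).

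The count of called sites changed as follows. Between the mock lines (6 sites, all lower in SW480) it was 3 after division by local input, 1 of them higher. It was 10 with a group mean of at least 1 and 26 of 57 when every listed bin was tested. Between the ERβ lines (3 sites, all higher in SW480) it was 10 with the same median height, all of them lower. It was 8 of 57 with every bin tested, 4 of them higher, and 1 at 8 times input. It was 0 with 600-bp means, with a filter on the mean of all 12 libraries or with a replicate block. For ERβ in SW480 (8 sites, all higher) it was 4 with the same median height, all of them lower and at other sites. It was 4 with the filter on the mean of 12 libraries, all of them higher. It was 21 of 57 with every bin tested, and 5 each at a group mean of at least 4 or 8 times input. For the difference in effect (2 sites) it was 1 with the same median height, 1 with the filter on the mean of 12, 4 with input subtracted and 5 of 57 with every bin tested. It was 6 without replicate 1 of both HT29 conditions and 13 with the replicate block. In the genome, ERβ against mock in SW480 had 548 calls with the same median height against 3832. The difference in effect had 94 with the same median height, 3668 with input subtracted and 5125 with the block, against 1918. With each library left out in turn, calls ranged from 2 to 8 between mock lines, 0 to 3 between ERβ lines, 0 for ERβ in HT29, 3 to 16 for ERβ in SW480 and 0 to 9 for the difference in effect. In paired fits with the replicate number as a block, ERβ in HT29 still had 0 of 17 sites (19 in the genome) and ERβ in SW480 had 11, adding BCL3 -23407, BCL3 -9607 and BCL3 -7. Between the mock lines, where libraries share only a number, the block gave 5.

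BCL3 -3207 was lower in SW480 mock under all 23 alternatives. It was higher with ERβ in SW480 under all 21 alternatives and called in 20, the call being lost at the same median height (0.44, adjusted p = 0.229), and its difference in effect was called in 21 of 27. The study reports mapped reads per sample, but the scaled tracks keep no read counts, so how far depth limits low sites was not computed.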
